A study of Rattus norvegicus with 24 samples.

Results

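Cyp1a1, Cyp1a2 and Cyp2e1 are 3 cytochrome P450 genes whose liver mRNA was followed across 24 rats. They were picked by their Ensembl gene IDs (ENSRNOG00000019500, ENSRNOG00000016173 and ENSRNOG00000012458, in that order), and all 3 were found among the 18056 gene IDs of the count tables. The study asked whether ozone breathed by a pregnant rat alters the liver of its offspring, and whether sons and daughters differ in this. Livers were taken at about postnatal day 48, polyA-selected RNA was sequenced, and each library comes from 1 animal.

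The 4 groups, of 6 animals each, were males and females whose dams had been in chambers for 4 hours on gestation days 5 and 6, breathing clean filtered air or ozone at 0.8 ppm. Every animal of the 4 groups was itself given ozone in postnatal weeks 5, 6 and 7 (0.4 ppm, then 0.8 ppm in the last 2 weeks). The comparisons below are therefore between dams' exposures and between sexes among ozone-exposed offspring, and none of them isolates the offspring's own ozone. The labels name no strain and no litter. There were 12 dams per exposure, and littermates may be among the animals. Littermates within a group would make the p-values too small. A brother and sister from 1 dam fall in different groups, which could make p-values of the sex comparisons too large. In whole liver, fewer cells expressing a gene and less RNA per cell cannot be told apart.

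Cytochromes P450 are haem enzymes of the endoplasmic reticulum that insert oxygen into foreign and endogenous compounds, with electrons passed on by NADPH-cytochrome P450 reductase. Cyp1a1 and Cyp1a2 are the classic targets of the aryl hydrocarbon receptor, a ligand-activated transcription factor: dioxins and polycyclic aromatic hydrocarbons induce both, Cyp1a1 from a very low level in resting liver and Cyp1a2 from a constitutive level in hepatocytes around the central vein. Cyp2e1 also has its highest level around the central vein. It oxidizes ethanol, acetone and other small molecules, and turns paracetamol into its reactive metabolite.

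Library totals lay between 8462290 and 14564662 estimated counts in 23 libraries and were 36232072 in replicate 6 of the females from ozone-exposed dams. The limit set by 3 counts was 0.0828 to 0.355 CPM (counts scaled to a common library size) and covers counting error only. The 3 genes were at very different depths. Cyp2e1 had 44228 to 195236 counts per library and took 0.439% to 1.04% of a library's counts. It ranked between 10th and 26th of all gene IDs by count. Cyp1a2 had 4016 to 17704 counts. Cyp1a1 had 1 to 160 counts, and its libraries at 1 and 2 counts lie under the 3-count limit. Counts are not divided by gene length, so levels of different genes are not compared.

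The start regions of Cyp1a2 and Cyp2e1 are shown because only these 2 were available. RefSeq's table of start regions (build GRCr8, not the rn6 build named for the counts) held 2 of the 3 genes, with 250 bases before to 50 after the gene's start, and not Cyp1a1. RefSeq's separate gene table of that build, which does hold Cyp1a1, places it next to Cyp1a2 on chromosome 8, while Cyp2e1 lies on chromosome 1. Capitals mark matches, on either strand, to TATAAA (the TATA box) and CCAAT (the CCAAT box).
Cyp1a2 (chr8:66978100-66978399, minus strand): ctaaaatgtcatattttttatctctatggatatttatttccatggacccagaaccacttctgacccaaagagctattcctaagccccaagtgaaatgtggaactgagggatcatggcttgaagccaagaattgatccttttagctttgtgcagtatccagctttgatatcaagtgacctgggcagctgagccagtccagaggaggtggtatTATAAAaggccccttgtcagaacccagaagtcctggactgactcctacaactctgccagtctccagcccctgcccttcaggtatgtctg
Cyp2e1 (chr1:205269717-205270016, plus strand): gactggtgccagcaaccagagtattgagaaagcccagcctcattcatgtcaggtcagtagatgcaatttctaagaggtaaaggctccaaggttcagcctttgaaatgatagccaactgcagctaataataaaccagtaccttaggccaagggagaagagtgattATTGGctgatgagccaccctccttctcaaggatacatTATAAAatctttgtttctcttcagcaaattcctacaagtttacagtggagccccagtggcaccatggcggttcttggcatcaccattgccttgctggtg
TATAAA began 39 bases before the start of Cyp1a2, at position -39, and at -49 in Cyp2e1. It was found in 14.2% of 33469 RefSeq start regions of the same length. CCAAT matched once in Cyp2e1, on the opposite strand at -86, and not in Cyp1a2, against 37.5% of start regions. GCGTG, the core of the element bound by the aryl hydrocarbon receptor, was in neither window and in 29.7% of start regions. Matches to letters are not evidence of binding, and other elements may lie outside these windows.

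Cyp1a1, the inducible member, ranged more widely between animals of a group than the group means did. In males from air-exposed dams its level was 2.90, 14.9, 3.13, 3.79, 2.48 and 1.25 CPM in replicates 1 to 6. In males from ozone-exposed dams it was 2.79, 12.9, 3.93, 3.19, 1.91 and 0.717 CPM. Each male group thus had 5 low livers and 1, replicate 2, several times higher. Females from air-exposed dams had 0.0681, 0.908, 0.716, 5.14, 4.39 and 0.260 CPM, so that 2 of 6 stood above the rest. Females from ozone-exposed dams had 0.180, 3.55, 0.964, 0.973, 0.276 and 0.315 CPM, with replicate 2 again the highest. The lowest female value is 1 count, with an exact 95% Poisson interval of 0.0253 to 5.57 counts, and the highest male value is 160 counts, with an interval of 136 to 187.

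The mean level of Cyp1a1 was 4.75 ± 5.06 CPM in the males of air-exposed dams (SD over 6 animals, as for the other groups) and 4.25 ± 4.40 CPM in the males of ozone-exposed dams. It was 1.91 ± 2.24 CPM and 1.04 ± 1.28 CPM in the corresponding females. In each group the SD exceeded the mean. The ranges of neighbouring groups in this order overlapped. Maternal ozone went with a log2 fold change of -0.10 ± 0.82 (SE) in males, where the edgeR quasi-likelihood test gave an adjusted p of 0.948. The 95% interval ran from 0.262-fold to 3.34-fold, so a fall or a rise of 3-fold lies inside it. In females the log2 fold change was -1.15 ± 1.03 (edgeR adjusted p = 0.617), with an interval from 0.0933-fold to 2.17-fold. It was -0.38 and -0.58 without replicates 4 and 5 of air-exposed dams and -1.88 without replicate 2 of ozone-exposed dams, and passed the test in none of these (adjusted p = 0.872, 0.865 and 0.355). The libraries fall into 2 sets by the form of their names. Within sets 1 and 2 alone, the difference was -1.34 and 0.72 in males and -2.86 and -0.23 in females. Its sign in males was positive without replicate 2 of air-exposed dams (0.57, edgeR adjusted p = 0.547) and without replicate 4, 5 or 6 of ozone-exposed dams (0.10, 0.23 and 0.09). In females limma-voom gave -0.34 in place of -1.15.

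Cyp1a1 was higher in males than in females, by 3.33-fold when averaged over both dam groups (95% interval 1.36 to 8.15; log2 difference 1.74 ± 0.62 SE, edgeR adjusted p = 0.0269). This averaged comparison was chosen after the values were seen. All 6 males from air-exposed dams lay above the median of the corresponding females, and so did all 6 males from ozone-exposed dams, although the ranges overlapped in both. Within each dam group the difference did not pass the test: it was 1.38 ± 0.85 with air-exposed dams (edgeR adjusted p = 0.181) and 2.09 ± 0.90 with ozone-exposed dams (edgeR adjusted p = 0.213, unadjusted 0.0305). With air-exposed dams it was 0.40 without replicate 2 of the males (edgeR adjusted p = 0.718) and 2.24 without replicate 4 of the females (adjusted p = 0.0548). With ozone-exposed dams it was 1.34 without replicate 2 of the males (edgeR adjusted p = 0.528) and 3.01 without replicate 2 of the females (adjusted p = 0.0935). The averaged call was lost without replicate 2 of the males from air-exposed dams (1.25, adjusted p = 0.0821), without replicate 2 of the males from ozone-exposed dams (1.35, adjusted p = 0.0814) and without the deepest library, replicate 6 of the females from ozone-exposed dams (1.59, adjusted p = 0.0515). Within library sets 1 and 2 it was 2.45 and 1.35, with edgeR adjusted p-values of 0.206 and 0.166.

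**Figure D1:**
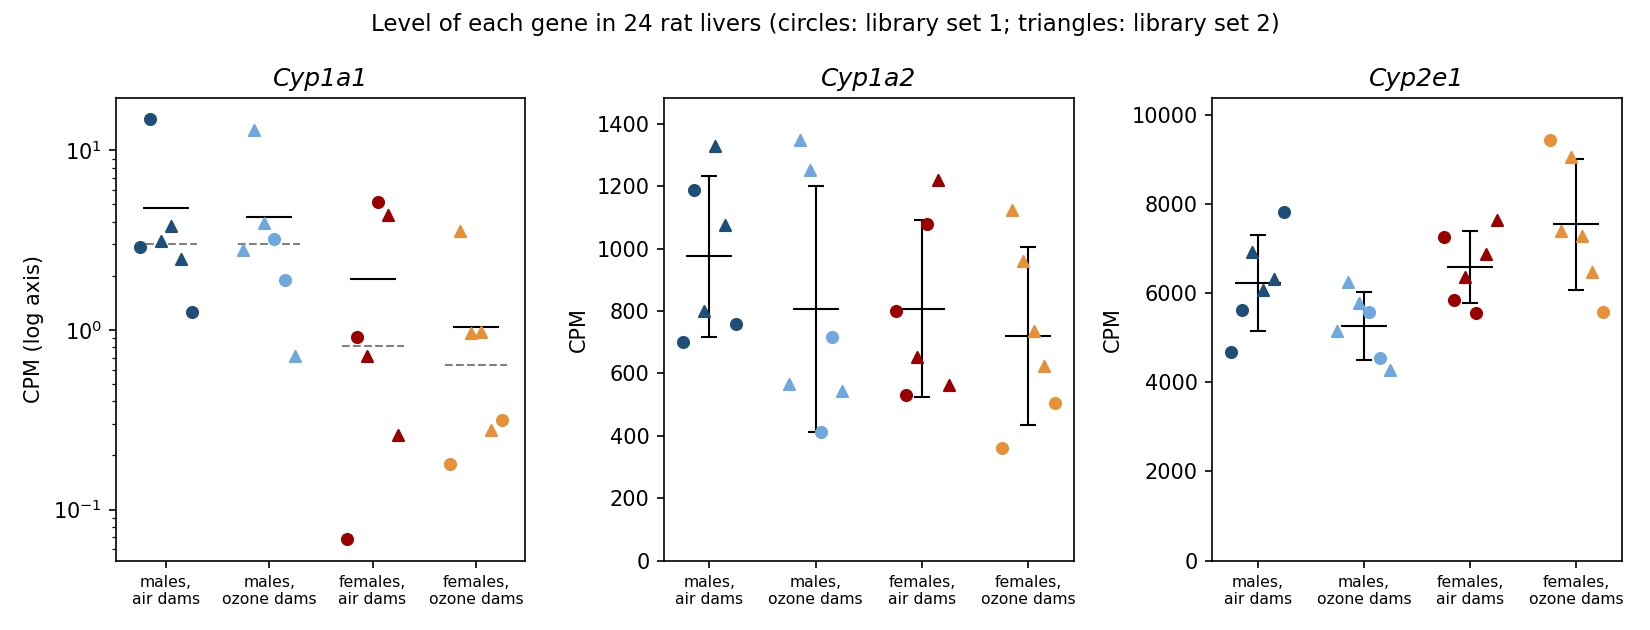
Level of Cyp1a1 (log axis), Cyp1a2 and Cyp2e1 in CPM for each of the 24 livers, by sex and dam's exposure. Points are animals (circles and triangles for library sets 1 and 2), solid lines are group means, bars are 1 SD (Cyp1a2 and Cyp2e1) and dashed lines are medians (Cyp1a1). Cyp1a1 spans 0.0681 to 14.9 CPM, and Cyp2e1 in males from ozone-exposed dams (4283 to 6254 CPM) lies below 5 of the 6 females from ozone-exposed dams.

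Cyp1a2, the constitutive member of the subfamily and the main caffeine-metabolizing P450 of liver, did not differ detectably between any of the groups compared. Its level in males from air-exposed dams was 701, 1187, 798, 1328, 1076 and 759 CPM. Males from ozone-exposed dams had 566, 1348, 1251, 412, 717 and 544 CPM. The second group thus held both the highest and the lowest values of the males: 3 of its livers lay below every male from air-exposed dams and 1 lay above them all. Females from air-exposed dams had 800.0, 530.2, 654, 1079, 1220.1 and 562 CPM. Females from ozone-exposed dams had 361, 1124, 961, 737, 625 and 506 CPM, 2 of them below all females from air-exposed dams.

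Group means of Cyp1a2 were 975 ± 258 and 806 ± 395 CPM in males (air-exposed and ozone-exposed dams; SD, n = 6 each), and 808 ± 285 and 719 ± 285 CPM in females. With maternal ozone the fitted log2 fold change was -0.38 ± 0.28 in males (edgeR adjusted p = 0.359; 95% interval 0.505-fold to 1.17-fold) and -0.30 ± 0.28 in females (edgeR adjusted p = 0.630; 0.532-fold to 1.24-fold). Within library sets 1 and 2 the difference was -0.66 and -0.18 in males, and -0.90 and 0.10 in females, where the sign turned. With 1 animal left out in turn it ran from -0.54 to -0.22 in males (the latter without replicate 4 of ozone-exposed dams). In females it ran from -0.48 (without replicate 6 of air-exposed dams) to -0.12 (without replicate 1 of ozone-exposed dams), with -0.17 and -0.15 without replicates 4 and 5 of air-exposed dams. The log2 difference of males minus females was 0.25 ± 0.28 with air-exposed dams (edgeR adjusted p = 0.467), 0.18 ± 0.28 with ozone-exposed dams (adjusted p = 0.798) and 0.22 ± 0.20 on average (adjusted p = 0.382). The interval of the averaged difference was 0.877-fold to 1.54-fold.

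Cyp2e1 was lower in males than in females among offspring of ozone-exposed dams. Males from ozone-exposed dams had 5143, 6254, 5763, 5572, 4529.8 and 4283 CPM. Females from ozone-exposed dams had 9428, 7397, 9054, 7278, 6475 and 5583 CPM. Of these females, 5 of 6 were above every male of that dam group, and 4 of the 6 males were below every female, so the ranges overlapped only through replicate 6 of the females. Mean levels were 5257 ± 754 CPM in these males and 7536 ± 1477 CPM in these females (SD, n = 6 each). Males were at 0.697 of the female level (95% interval 0.573 to 0.848), a log2 difference of -0.52 ± 0.14 SE (edgeR adjusted p = 0.0214).

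That was the only call among the 3 genes in this comparison, in which 5.76% of 12854 genes were called. The size of the difference was similar within library sets 1 and 2 (-0.56 and -0.49), where fewer animals remained and neither passed the test (edgeR adjusted p = 0.708 and 0.107). It was also lost without replicate 6 of the males (-0.45, adjusted p = 0.0643), without replicate 1 of the females (-0.42, adjusted p = 0.0788) and without replicate 3 of the females (-0.47, adjusted p = 0.0540). With the other 9 animals of these groups left out in turn it passed.

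Among offspring of air-exposed dams, Cyp2e1 was 4674, 5622, 6907, 6067, 6309 and 7809.9 CPM in males and 7259, 5837, 6360.3, 5544, 6867 and 7628 CPM in females. The ranges overlapped almost entirely. The means were 6232 ± 1075 CPM and 6583 ± 814 CPM, and the log2 difference between males and females was -0.08 ± 0.14 (edgeR adjusted p = 0.655; 95% interval 0.779-fold to 1.15-fold). None of the 3 genes was called in this comparison (0 at an unadjusted p under 0.05, and 0 called by DESeq2), in which 51.5% of genes were.

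The maternal difference of Cyp2e1 had opposite signs in the sexes. In males it was -0.26 ± 0.15 (edgeR adjusted p = 0.219; 0.675-fold to 1.04-fold), and 5 of 6 males from ozone-exposed dams were below the median of the males from air-exposed dams. In females it was 0.19 ± 0.15 (edgeR adjusted p = 0.538; 0.922-fold to 1.42-fold), and 4 of 6 females from ozone-exposed dams were above the median of the others. Without replicate 1 of the females from ozone-exposed dams it was 0.05 (adjusted p = 0.912). Within library sets 1 and 2 it was -0.27 and -0.24 in males, and 0.27 and 0.13 in females. The test of the difference between these differences gave -0.44 ± 0.19 on the log2 scale (unadjusted p = 0.0309, edgeR adjusted p = 0.0975), which does not pass the threshold. A change of the sex difference of Cyp2e1 with maternal ozone was therefore not shown. The 4 group means ran, from the highest, from females with ozone-exposed dams through females and males with air-exposed dams to males with ozone-exposed dams, and no pair of neighbours in that order differed in its test. Averaged over dam groups, Cyp2e1 in males was 0.813 of the level in females (95% interval 0.708 to 0.933; log2 difference -0.30 ± 0.10, edgeR adjusted p = 0.0139). That call held with each of the 24 animals left out in turn. Within library sets 1 and 2 the averaged difference was -0.30 in both, with edgeR adjusted p-values of 0.360 and 0.0545.

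Of the 3 genes, none was called for maternal ozone in males, where edgeR called 21.3% of 12541 genes, and none in females, where it called 0.271% of 12538. None of the 6 differences had an unadjusted p under 0.05, and neither DESeq2 nor limma-voom called any of them (DESeq2 gave no adjusted p for Cyp1a1 in females). The median absolute log2 fold change of all genes tested was 0.263 in males and 0.176 in females. The difference of Cyp2e1 in males was thus of ordinary size, with 50.7% of genes changing by more, while that of Cyp1a1 in females was large (0.798% of genes changed by more) but no larger than its own spread. The difference of the maternal differences, males minus females, was 0.71 ± 1.23 for Cyp1a1 (edgeR adjusted p = 0.715) and -0.07 ± 0.39 for Cyp1a2 (adjusted p = 0.918). This interaction was called in 23.3% of genes and in none of the 3 (1 of them, Cyp2e1, at an unadjusted p under 0.05, and none by DESeq2). The averaged sex difference was called in 2 of the 3 genes, in opposite directions, against 45.6% of all genes, so that count is near the background.

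**Figure D2:**
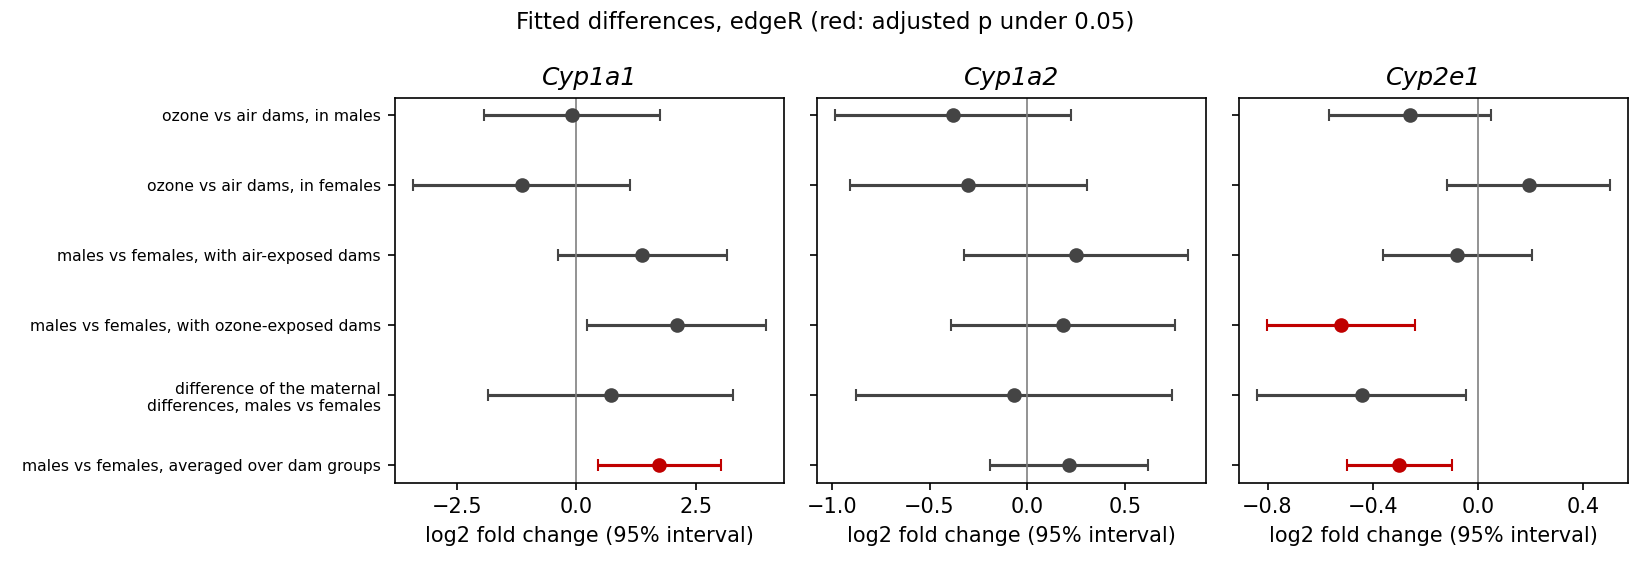
Fitted log2 fold changes of Cyp1a1, Cyp1a2 and Cyp2e1 with 95% intervals (x axes differ in scale) for the 6 comparisons, from edgeR. Red marks an adjusted p under 0.05: Cyp1a1 for males against females averaged over dam groups (1.74), and Cyp2e1 for the same comparison (-0.30) and with ozone-exposed dams alone (-0.52).

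The 3 genes also differed in how far animals of the same group lay apart. The coefficient of variation between animals that edgeR estimates, with counting error removed, was 0.998 for Cyp1a1, 0.334 for Cyp1a2 and 0.179 for Cyp2e1, against a median of 0.185 over all genes tested. Among the 500 genes nearest to Cyp1a1 in abundance the median was 0.231, and 0.600% of them varied more than Cyp1a1. The corresponding values for Cyp1a2 were 0.173 and 8.80%. Cyp2e1 varied about as much as genes of like abundance, of which 46.6% had a higher value (median 0.175). Within groups, among libraries with at least 3 counts of the gene (all but 1 in each female group), the highest Cyp1a1 level was 11.9 to 19.7 times the lowest, compared with 1.90 to 3.27 times for Cyp1a2 and 1.38 to 1.69 times for Cyp2e1. Library set differences were 0.22 ± 0.66, 0.47 ± 0.21 and 0.09 ± 0.10 on the log2 scale for Cyp1a1, Cyp1a2 and Cyp2e1 (set 2 minus set 1, SE; edgeR adjusted p of at least 0.943).

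**Figure D3:**
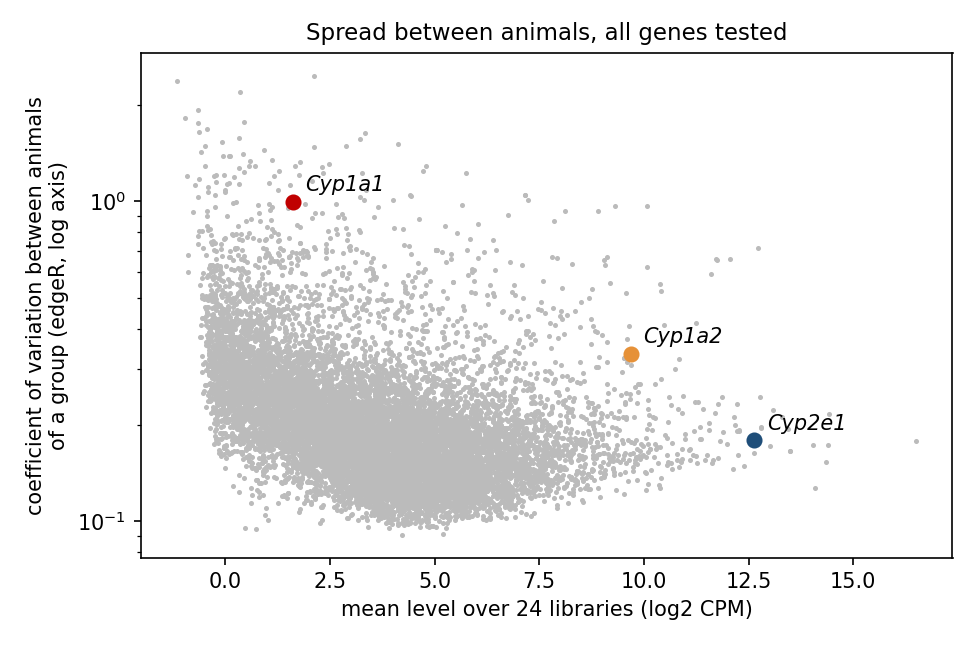
Coefficient of variation between animals of a group (y, log axis) against mean level in log2 CPM (x) for the 12854 genes tested in 24 libraries, each grey point 1 gene. Cyp1a1 (0.998) lies near the top of genes of its abundance, Cyp1a2 (0.334) above most, and Cyp2e1 (0.179) in the middle.

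By Pearson r, Cyp1a2 was the gene whose level followed that of Cyp1a1 most closely across animals. Over the 24 libraries, with each group's mean removed, the log2 CPM values of the pair had a Pearson r of 0.68 (Spearman rho 0.65), given as a description. Of 9340 genes with a mean count of at least 50, Cyp1a2 had the highest r with Cyp1a1. The next gene, known by ID only, was almost level by r (0.67) and ahead of Cyp1a2 by rho (0.77). In the reverse ranking Cyp1a1 would stand at place 9 for Cyp1a2. The median absolute r of all genes was 0.15 with Cyp1a1 and 0.18 with Cyp1a2. Within the groups, r was 0.57 in males and 0.68 in females from air-exposed dams, and 0.65 in males and 0.90 in females from ozone-exposed dams. None of the 4 passed after adjustment over the 12 relations tested (exact permutation p = 0.247, 0.151, 0.164 and 0.0167, n = 6 each; adjusted p = 0.433, 0.433, 0.433 and 0.100). Spearman's rho was 0.66, 0.43, 0.60 and 0.89 in the same order (exact permutation p = 0.175, 0.419, 0.242 and 0.0333; adjusted 0.483, 0.629, 0.483 and 0.200). Without the 2 animals farthest from the group's median Cyp1a1, which leaves 4, r was 0.38, -0.71, 0.29 and 0.83, and so turned sign in females from air-exposed dams. Library sets hold 2 to 4 animals of a group, too few for a value of their own.

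Between Cyp2e1 and the other 2 genes, r across the 24 livers after removal of the group means was -0.04 (Cyp1a1) and 0.13 (Cyp1a2). A relation passed the test in 1 group. In males from ozone-exposed dams, Cyp1a1 and Cyp2e1 had an r of 0.93 and the same order of animals, with a rho of 1 (exact permutation p = 0.00139 and 0.00278, n = 6; adjusted p = 0.0167 and 0.0333 over 12 relations). The first is the smallest p that 720 arrangements allow, and r was 0.99 without the 2 animals farthest from the group's median Cyp1a1, which leaves 4. The TMM scaling factor behind these values was 0.8616 in replicate 2 of this group and 1.0032 to 1.039 in its other libraries. Relative to the unscaled library total, replicate 2, the highest in Cyp1a1, had less Cyp2e1 than replicates 3 and 4. Its share was 63334 of 11753281 counts, against 76167 of 13173627 and 61084 of 10889144. The same order of animals, and with it the rho of 1, thus depends on that scaling. The relations were not repeated with another, so this relation was not shown to pass without TMM. In the other groups r of Cyp1a1 and Cyp2e1 was -0.47 (males, air-exposed dams), -0.63 (females, air-exposed dams) and 0.09 (females, ozone-exposed dams), with exact permutation p of 0.332, 0.197 and 0.856 (adjusted 0.498, 0.433 and 0.971). Without 2 animals in the same way, r in these groups was 0.09, -0.85 and 0.83. Whether the relation differs between groups was not tested. For Cyp1a2 and Cyp2e1, r was -0.05, 0.55, -0.14 and 0.02 in males from air-exposed and ozone-exposed dams and females from air-exposed and ozone-exposed dams, with adjusted exact permutation p of at least 0.433. Without the 2 animals farthest from the median Cyp1a2 it was -0.95, -0.68, 0.39 and 1 in the same order, so the values moved widely with 2 animals.

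**Figure D4:**
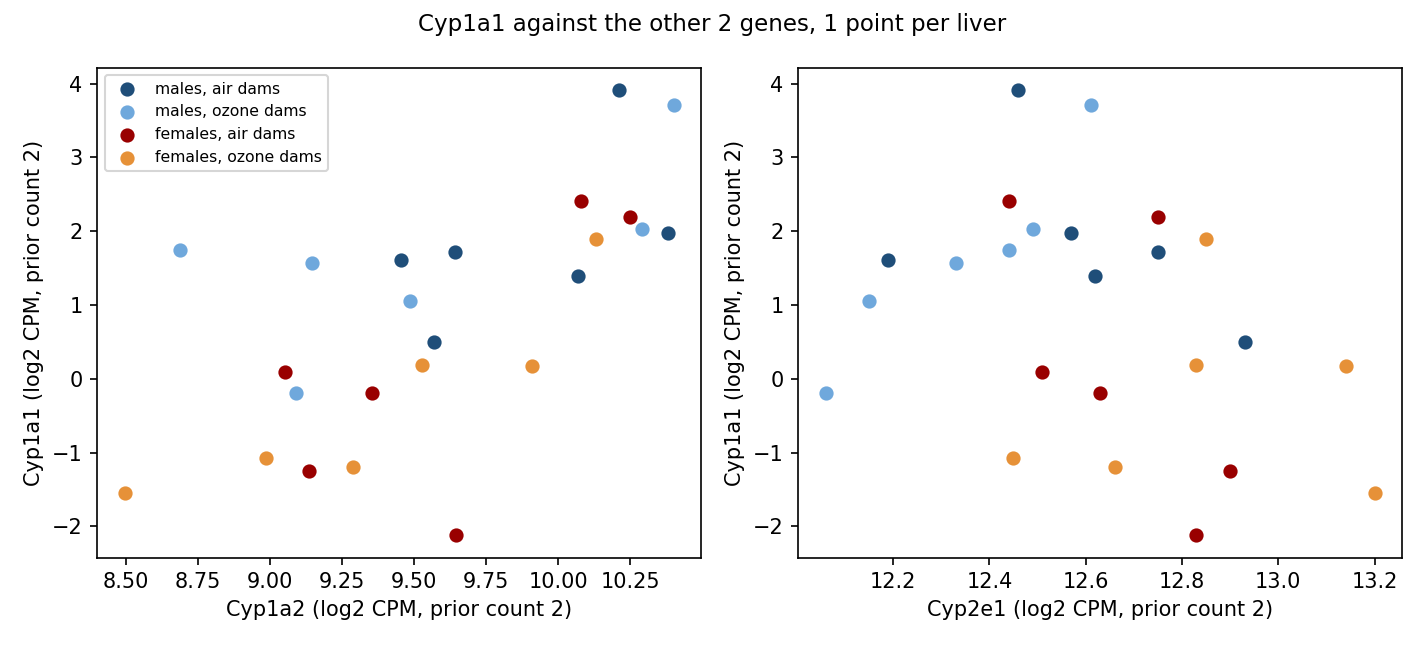
Cyp1a1 against Cyp1a2 (left) and against Cyp2e1 (right), both in log2 CPM with a prior count of 2, 1 point per liver and 1 colour per group. In the left panel the groups rise from left to right (r = 0.57 to 0.90 by group). In the right panel the 6 males from ozone-exposed dams lie along a rising line (r = 0.93 with TMM scaling, the only one used).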

How the data were processed

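Liver polyA RNA of 24 rats was sequenced on an Illumina NextSeq 500. The submitters' processing notes name Partek, STAR 2.6.1d, DESeq2 and the genome build rn6, without saying what each was used for. Strand use, gene annotation and filters: each is not given in the sources used here. Hence overlapping genes cannot be told apart. The authors deposited expected counts per gene, 1 table per sex, not divided by library size or length. Fractions in the 3 genes were at most 0.5 of a count, and counts were rounded. The tables have 23 more columns, of libraries outside these samples, which were left unused.

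The gene names come from the list that defined the 3 genes. No table used here pairs the other IDs with symbols, so 14 gene lists (aryl hydrocarbon receptor pathway, electron partners, haem synthesis, hepatocyte zones, cell type markers) were not tested, and the labelled tissue was not checked against markers. The 3 genes, lists and tests were chosen with earlier results of these data known.

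Counts were fitted over all genes with edgeR 4.0.16 (R 4.3.3): filterByExpr (minimum count 10, minimum total 15), TMM, robust quasi-likelihood test, library set (2 forms of library name, 2 to 4 animals each per group) as covariate, and Benjamini-Hochberg adjustment with calls under 0.05. Each sex was fitted by itself for maternal ozone, and all 24 libraries together for other contrasts. CPM use TMM, and log2 CPM a prior count of 2. Standard errors were derived from each log2 fold change and its F statistic. Relations used two-sided exact permutation tests. Named genes were the 3, plus the IDs most correlated with them. Alternatives were DESeq2 1.42.0, limma-voom 3.58.1, RLE factors, library totals, 2 filters, no set term, each set alone, 1 joint fit, exact permutation tests, other prior counts and each library left out. Fits were tested on simulated data. No 2 replicates agreed within sampling noise (chi-square per degree of freedom 17.2 to 91.9).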

Additional observations from a re-analysis of the deposited data

Results flagged for a closer look

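Cyp1a1 had 1 library far above the other 5 of its group in 3 of 4 groups: replicate 2 of the males from air-exposed dams (14.9 CPM), replicate 2 of the males from ozone-exposed dams (12.9 CPM) and replicate 2 of the females from ozone-exposed dams (3.55 CPM). The gap to the next library was 0.815, 0.737 and 0.765 of the group's range, above Dixon's 95% critical value for 6 samples. For normally distributed values chance flags about 1 in 20 groups, and 16 were examined, 12 of them for these genes. That rate does not hold for Cyp1a1 in CPM, whose SD exceeded the mean in each group. On log2 CPM none of the 3 gaps reached the critical value. There the highest, next and lowest livers were at 3.92, 1.98 and 0.498 (males, air-exposed dams). They were at 3.71, 2.03 and -0.187 (males, ozone-exposed dams) and 1.89, 0.182 and -1.55 (females, ozone-exposed dams). The 3 flagged animals had 1187, 1348 and 1124 CPM of Cyp1a2, the highest of the group in the last 2 cases.

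The total of replicate 6 of the females from ozone-exposed dams, 36232072 counts, stood apart from the other 5, of which the highest was 12094568. This library had the lowest Cyp2e1 of its group (5583 CPM). Without it the difference of Cyp2e1 between males and females from ozone-exposed dams was -0.59 (edgeR adjusted p = 0.0103).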

How the results depend on the processing

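With 1 animal left out in turn, the log2 fold change of Cyp1a1 with maternal ozone in males ran from -0.79 to 0.57, and the interaction from -0.13 to 1.72 for Cyp1a1 and from -0.243 to 0.0803 for Cyp1a2. Cyp2e1 between the sexes with ozone-exposed dams ran from -0.59 to -0.42, and Cyp1a1 between the sexes on average from 1.25 to 2.18. Within 1 library set alone, signs turned for Cyp1a1 with maternal ozone in males (0.718, set 2), Cyp1a2 with maternal ozone in females (0.0991, set 2) and the interaction of Cyp1a2 (0.246, set 1). Calls lost within sets 1 and 2, which hold fewer animals, were those of Cyp2e1 with ozone-exposed dams (-0.561 and -0.487), and of Cyp1a1 (2.45 and 1.35) and Cyp2e1 (-0.297 and -0.300) averaged over dam groups. DESeq2, limma-voom, the scalings, the filters and the set term changed no call or sign in the differences of the 3 genes. Nor did the joint fit and the permutation tests of the maternal differences, none of which was called. A mean count of at least 50 leaves Cyp1a1 out. The relations between genes were not repeated with other scalings, so the 1 that passed was not shown to hold without TMM. Counts over all genes moved more: 2669 in males became 861 and 121 within sets 1 and 2, and 1684 and 1758 without replicates 5 and 4 from air-exposed dams. In females 34 became 332 with DESeq2, 66 without the set term, 1 in the joint fit, 9 and 0 within the sets, and 0 to 133 with an animal left out. Between the sexes, 741 became 71 and 412 within the sets with ozone-exposed dams, 6622 became 3404 in set 1 with air-exposed dams, and 5867 became 899 in set 1 on average. The interaction count of 2994 became 433 and 450. The causes were not tested. Depth limits Cyp1a1 in females, where 4 of 12 libraries hold 1 to 3 counts. No paired analysis was possible because the labels give no replicate numbers shared between groups.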

Other observations

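Among genes with a mean count of at least 50, those most like Cyp1a2 and Cyp2e1 over the 24 libraries, after group means were removed, were known by ID only. ENSRNOG00000026884 had an r of 0.79 with Cyp1a2 (rho 0.76), and ENSRNOG00000025385 an r of 0.80 with Cyp2e1 (rho 0.84). Each was the highest of 9339 genes, whose median r was -0.02 and -0.01. These are descriptions without a test.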
